A study of Mus musculus with 4 samples.

Results

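NF-kB is a family of dimeric transcription factors that switch on inflammatory, survival and feedback genes in myeloid cells. The 10 genes described here were chosen by symbol: the 5 subunit genes Nfkb1, Nfkb2, Rel, Rela and Relb, the inhibitor genes Nfkbia and Nfkbie, the regulator Nfkbiz, the feedback enzyme Tnfaip3, and the cytokine Tnf. All 10 were found among the 16442 genes of the deposited table. In resting cells the dimers are held in the cytoplasm by inhibitor proteins of the IkB family. Signals from cytokine and Toll-like receptors activate a kinase complex that marks the inhibitors for destruction, and the freed dimers then induce several of their own inhibitors, which ends the response.

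The libraries were made from leukaemia stem cells, the leukaemic cells able to restart the disease, taken from bone marrow of C57BL/6 mice with leukaemia. One group came from wild-type mice (WT) and the other from mice with a knockout of Rreb1, a zinc-finger transcription factor (KO), with 2 biological replicates in each. The labels do not give the age of the mice, the agent that caused the leukaemia, the part of Rreb1 removed, or how many mice gave a replicate. Rreb2 is named in the genotype label of KO replicate 2, and the RNA extraction protocol mentions TAMs rather than leukaemia stem cells, so libraries were grouped by title.

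Depth was 16590831 to 18451254 assigned reads per library. Rreb1 itself stood at 5.24 and 6.57 FPKM (a level per kilobase of transcript, relative to all assigned fragments of the library) in WT and at 6.10 and 6.93 in KO. Its log2 difference was 0.13 (limma adjusted p = 0.616) and turned to −0.013 without WT replicate 1, so its transcript level does not check the genotype labels. WT and KO stand for those labels throughout. All 7 stem and progenitor genes measured were above 1 FPKM on average, among them Cd34 (68.3 and 71.5 FPKM in WT, 50.5 and 49.8 in KO) and Hoxa9 (28.9 and 30.4, against 35.8 and 31.8). Markers of other marrow cells were also present.

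None of the 10 genes passed the test between KO and WT. Of the 8 with a mean of at least 1 FPKM, 0 rose and 0 fell by limma (adjusted p below 0.05), and 0 had an unadjusted p below 0.05. Over all 11768 genes tested, 0.603% were called higher and 0.408% lower in KO, 1.01% in either direction, and 20.7% had an unadjusted p below 0.05. A count-based test on recovered reads, limma-voom, called 0 of the 8 as well, against 7.36% of all genes. The 8 adjusted p-values ran from 0.351 to 0.864. The 95% limits of the differences all lay between −0.43 and 0.76 on the log2(FPKM + 1) scale, ratios of 0.741 to 1.70, so a 2-fold change lay outside every interval on that scale, which understates changes of low genes.

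**Figure D1:**
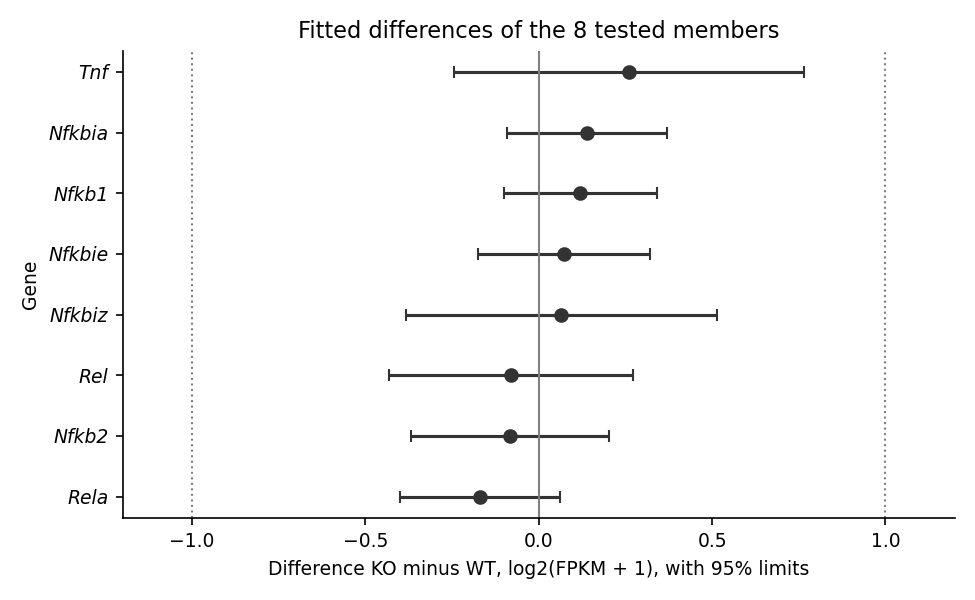
Fitted differences between KO and WT on the log2(FPKM + 1) scale for the 8 tested genes, with 95% limits from limma as bars (2 libraries per group); dotted lines mark −1 and 1. Every interval includes 0, and that of Tnf, −0.24 to 0.76, is the widest.

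The levels spread far more between the genes than between the libraries. By FPKM, which is a level per length of transcript, Nfkbia was highest, with a mean of 148.0 over the 4 libraries. Rela followed at 36.1 and Nfkb1 at 12.4, each separated from the next by ranges that did not overlap. Nfkbie (5.82), Tnf (4.96), Nfkb2 (3.98) and Rel (3.22) formed a run in which each range overlapped that of its neighbour. Nfkbiz (1.91) stood apart below them, and Relb (0.940) and Tnfaip3 (0.848) overlapped at the bottom. Among all genes of the table these means ran from the 25.5th percentile for Tnfaip3 to the 97.6th for Nfkbia.

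**Figure D2:**
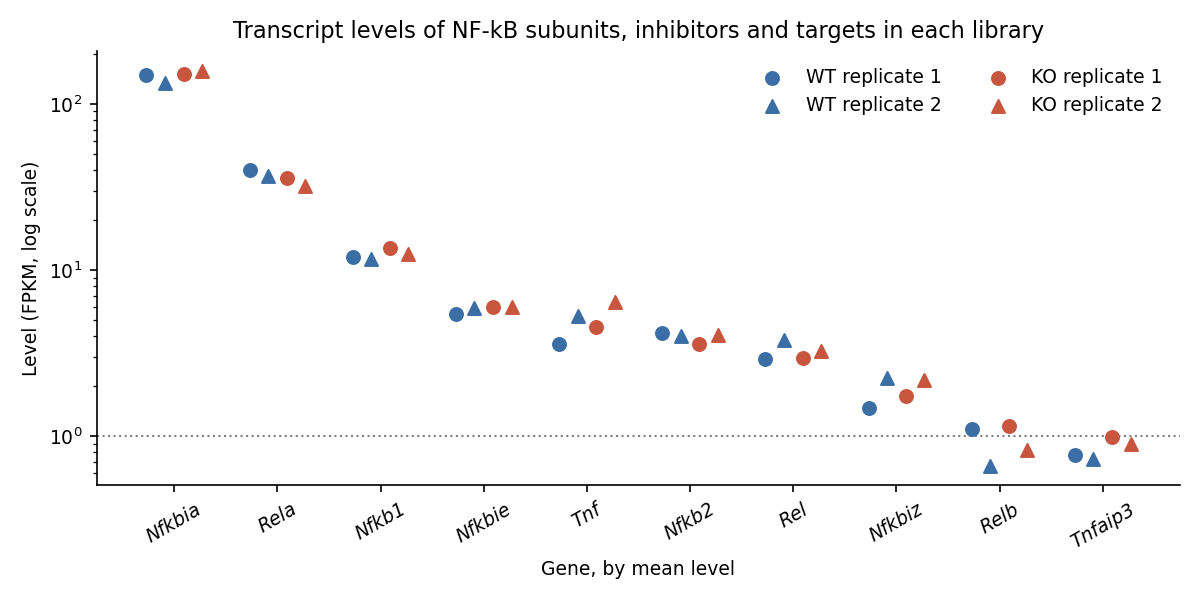
Level of each gene in FPKM (log axis) in the 4 libraries, ordered by mean level; blue points are WT, red points KO, circles replicate 1 and triangles replicate 2, and the dotted line marks 1 FPKM. Nfkbia lies between 133.5 and 158.8 FPKM in all libraries, while Relb and Tnfaip3 lie near or below 1.

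Among the subunits, Rela encodes RelA, the subunit that carries the strong activation domain of the classical dimer. Rela (chromosome 19, 5637483 to 5648130, plus strand, GRCm38) was at 39.8 and 36.8 FPKM in WT and at 35.9 and 32.0 in KO. Both KO libraries were below both WT libraries, although WT replicate 2 and KO replicate 1 did not differ beyond counting error. Here and in what follows, libraries are said to differ beyond counting error where their exact Poisson 95% intervals do not overlap. The log2 difference was −0.17 (SE 0.095, 95% limits −0.40 to 0.061, limma adjusted p = 0.351), the smallest p of the 8 genes. Leaving out single libraries moved it between −0.25 and −0.089.

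Nfkb1 encodes a precursor that is processed to the DNA-binding partner of RelA. Nfkb1 (chromosome 3, 135584655 to 135691547, minus strand) was at 12.0 and 11.7 FPKM in WT and at 13.5 and 12.4 in KO. Both KO libraries were above both WT libraries, and the 2 KO libraries differed beyond counting error. The log2 difference was 0.12 (SE 0.090, limits −0.10 to 0.34, limma adjusted p = 0.477). It was 0.063 without KO replicate 1 and 0.18 without KO replicate 2.

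Nfkb2 and Relb encode the pair of the alternative pathway, in which processing of the Nfkb2 precursor releases dimers with RelB. Nfkb2 (chromosome 19, 46304320 to 46312385, plus strand) was at 4.20 and 4.04 FPKM in WT and at 3.59 and 4.08 in KO. The KO libraries lay on either side of WT replicate 2, so the groups overlapped (log2 difference −0.083, SE 0.12, limma adjusted p = 0.713). The difference was −0.0090 without KO replicate 1 and −0.16 without KO replicate 2. Its locus overlaps annotated genes on the opposite strand, including Psd, whose reads cannot be told apart from its own where the library does not mark strand. Relb (chromosome 7, 19606217 to 19629438, minus strand) was at 1.10 and 0.667 FPKM in WT and at 1.16 and 0.831 in KO. These came from 79, 43, 83 and 55 reads, and in both groups replicate 1 was the higher. The exact Poisson 95% interval of WT replicate 2, 0.483 to 0.899 FPKM, overlapped that of WT replicate 1, 0.873 to 1.37.

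Rel encodes c-Rel, a subunit best known in lymphocytes and activated myeloid cells. Rel (chromosome 11, 23736847 to 23770970, minus strand) was at 2.91 and 3.78 FPKM in WT and at 2.94 and 3.24 in KO. Both KO libraries lay between the WT libraries, and the 2 WT libraries differed beyond counting error. The log2 difference of −0.080 (SE 0.14, limma adjusted p = 0.776) turned to 0.064 without WT replicate 2.

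Summed over the 5 subunit genes, the level was 60.0 and 57.0 FPKM in WT and 57.1 and 52.6 in KO. Rela made up 66.3% and 64.5% of that sum in WT and 62.8% and 60.8% in KO. Nfkb1 made up 20.0% and 20.6% in WT and 23.7% in each KO library. The remaining 3 genes took overlapping shares, with Relb between 1.17% and 2.03%. For Rela and Nfkb1 the groups did not overlap, but shares of 1 sum are tied to each other, and the exact permutation test of 2 libraries against 2 gave p = 0.333 (two-sided), the smallest it can give. The shares were computed after the levels had been seen.

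Ratios within a library showed the same ordering of groups. Nfkb1 to Rela was 0.302 and 0.319 in WT and 0.377 and 0.389 in KO. Nfkbia to Rela was 3.73 and 3.63 in WT and 4.22 and 4.97 in KO, and Tnfaip3 to Rela was 0.0194 and 0.0200 against 0.0274 and 0.0282. These 3 ratios share Rela as their denominator, and each had the exact two-sided permutation p of 0.333. Rela was lower, and Nfkb1, Nfkbia and Tnfaip3 were higher, in both KO libraries than in both WT libraries. The order of the groups in these 3 ratios was therefore fixed by those levels and is no separate result. Nfkb2 to Relb (3.81 and 6.05 in WT, 3.09 and 4.92 in KO) and Tnf to Nfkbia (0.0241 and 0.0397, against 0.0300 and 0.0406) overlapped between the groups, with p = 0.667 in the same exact test. With 5 ratios and 8 shares compared, none could pass a threshold of 0.05 at this number of libraries.

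**Figure D3:**
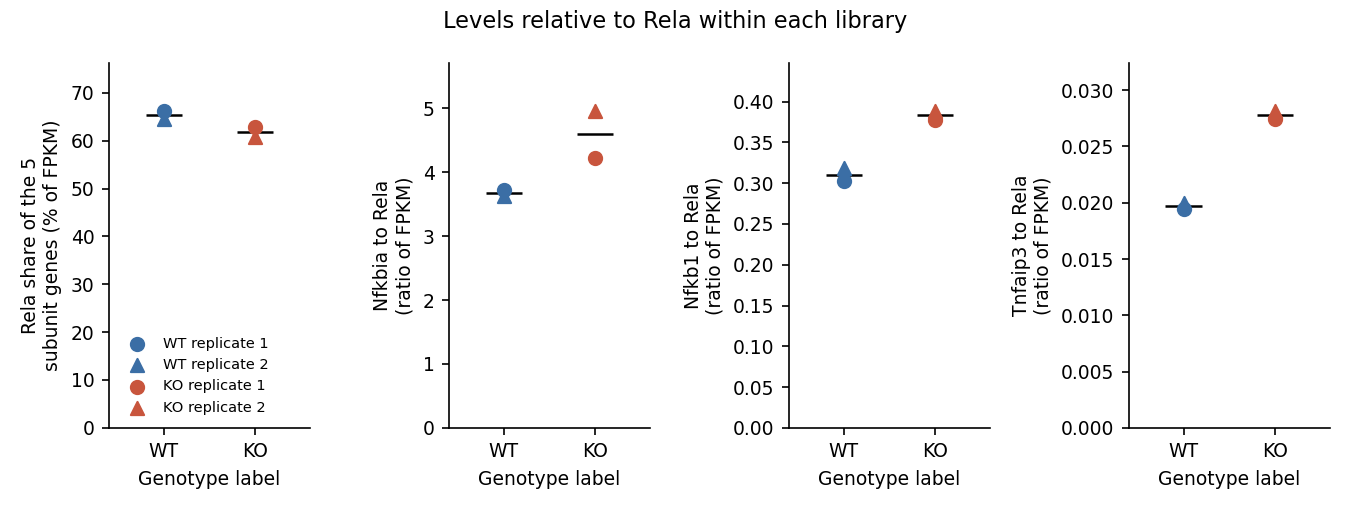
Share of Rela in the summed FPKM of the 5 subunit genes, and the ratios of Nfkbia, Nfkb1 and Tnfaip3 to Rela, in each library; horizontal lines are group means of 2 libraries and all axes start at 0. The KO libraries are lower in the share (60.8% and 62.8%) and higher in the 3 ratios. The order of the groups in the ratios is already fixed by the levels of these genes.

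The genes whose pattern over the 4 libraries was most like that of Rela were Ints11, Ecsit and H2-DMb1. Their Euclidean distances from Rela were 0.0136, 0.0138 and 0.0149 in mean-centred log2(FPKM + 1). As many as 495 of 11760 genes lay within a distance of 0.1, so the pattern was a common one. Ints11 was at 30.1 and 28.1 FPKM in WT and 27.3 and 24.1 in KO, a difference with an adjusted p = 0.345 by limma.

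Among the inhibitors, Nfkbia encodes IkB alpha, the inhibitor that NF-kB itself induces most rapidly. Nfkbia (chromosome 12, 55489410 to 55492647, minus strand) was at 148.3 and 133.5 FPKM in WT and at 151.5 and 158.8 in KO. Both KO libraries were above both WT libraries, but WT replicate 1 and KO replicate 1 did not differ beyond counting error. The log2 difference was 0.14 (SE 0.095, limits −0.091 to 0.37, limma adjusted p = 0.432), and leaving out WT replicate 2 gave 0.064 and WT replicate 1 gave 0.21. Of the summed level of Nfkbia, Nfkbib and Nfkbie, Nfkbia made up 78.3% to 79.4% in WT and 79.7% to 82.6% in KO.

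Because feedback by NF-kB acts through kB motifs near the start sites, the motif was searched in the RefSeq promoters (build GRCm38.p6). Of the 10 genes, 7 have a promoter in that table: Nfkb2, Rel, Rela, Nfkbia, Nfkbie, Tnfaip3 and Tnf. A gene with several promoters counted as found where any of them matched, which gives such genes more chances. The loose motif, GGG and CC with any 5 bases between them, on both strands and in 250 bases before to 50 after the start, was found in 7 of the 7 and in 69.9% of the 10171 genes of the expression table that have a promoter. A narrower motif, GGG and TTCC with any 3 bases between them, whose matches are a subset of the loose ones, was found in 5 of 7 and in 7.39% of all. GGG and TTTCC with any 2 bases between them, narrower again, was found in 4 of 7 and in 2.08% of all. A match is a string of letters and not a measured binding site. The 250 bases before the start of Nfkbia, the most abundant of the 10 transcripts, are shown with the matches to the loose motif in capitals (chr12:55492648-55492897, minus strand, 5′ to 3′).
Nfkbia promoter: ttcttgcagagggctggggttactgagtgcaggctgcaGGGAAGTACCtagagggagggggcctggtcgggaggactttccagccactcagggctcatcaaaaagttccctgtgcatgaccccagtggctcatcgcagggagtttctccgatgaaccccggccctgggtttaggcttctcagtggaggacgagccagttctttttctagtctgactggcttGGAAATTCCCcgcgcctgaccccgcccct

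The matches to the motif GGG, any 3 bases, TTCC (on either strand) that lie nearest to a start are shown next, in capitals with up to 10 bases on each side, so that the reader can compare the sites of genes that differ widely in level. For Nfkbia (chr12:55492657-55492686), Nfkb2 (chr19:46304716-46304736), Rel (chr11:23771041-23771070), Nfkbie (chr17:45555584-45555613) and Tnfaip3 (chr10:19015411-19015432) each is written along the strand of its gene.
Nfkbia: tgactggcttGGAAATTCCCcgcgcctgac
Nfkb2: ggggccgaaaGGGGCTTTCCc
Rel: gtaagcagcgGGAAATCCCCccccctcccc
Nfkbie: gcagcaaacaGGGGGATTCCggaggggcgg
Tnfaip3: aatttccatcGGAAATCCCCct
The capitals of Rel and Tnfaip3 are the same 10 letters, while their transcripts stood at 3.22 and 0.848 FPKM on average. The match in Nfkbia begins 29 bases before the start and that in Tnfaip3 12 bases before it.

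Nfkbie encodes IkB epsilon, a slower-acting inhibitor. Nfkbie (chromosome 17, 45555703 to 45563169, plus strand) was at 5.41 and 5.90 FPKM in WT and at 6.01 and 5.98 in KO. The 2 KO libraries were nearly equal and lay just above WT replicate 2. The log2 difference was 0.072 (SE 0.10, limits −0.18 to 0.32, limma adjusted p = 0.714), and it was 0.019 without WT replicate 1 and 0.13 without WT replicate 2.

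Nfkbiz encodes IkB zeta, a nuclear relative of the inhibitors that helps NF-kB to induce secondary response genes. Nfkbiz (chromosome 16, 55811375 to 55838899, minus strand) was at 1.48 and 2.23 FPKM in WT and at 1.75 and 2.19 in KO. Both KO libraries lay between the WT libraries, and the WT libraries differed beyond counting error. Its log2 difference of 0.065 (SE 0.18, limma adjusted p = 0.864) turned to −0.13 without WT replicate 1 and to −0.041 without KO replicate 2.

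Tnfaip3 encodes a ubiquitin-editing enzyme that NF-kB induces and that shuts off signalling upstream of the kinase complex. Tnfaip3 (chromosome 10, 19000910 to 19015657, minus strand) was at 0.773 and 0.734 FPKM in WT and at 0.984 and 0.902 in KO. The reads were 103 and 88 against 131 and 111, and both KO libraries were above both WT libraries. It was below the minimum level for the main test, as was Relb. With no filter on level, limma gave Tnfaip3 a log2 difference of 0.15 (SE 0.13, adjusted p = 0.573) and Relb 0.087 (SE 0.18, adjusted p = 0.829). Limma-voom on recovered reads without the filter gave 0.32 (95% limits −0.16 to 0.81, adjusted p = 0.453) and 0.19 (−0.49 to 0.86, adjusted p = 0.785).

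Tnf encodes tumour necrosis factor, a cytokine that is both an activator of NF-kB and one of its targets. Tnf (chromosome 17, 35199381 to 35202007, minus strand) was at 3.57 and 5.30 FPKM in WT and at 4.54 and 6.45 in KO. The replicates differed more than the genotypes: replicate 2 was 1.48 times replicate 1 in WT and 1.42 times in KO, and in both groups the difference exceeded counting error. The log2 difference between genotypes was 0.26 (SE 0.21, limits −0.24 to 0.76, limma adjusted p = 0.500), the largest of the 8 genes in size. It was 0.029 without WT replicate 1, 0.046 without KO replicate 2, 0.47 without KO replicate 1 and 0.49 without WT replicate 2.

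Rel and Nfkbiz, like Tnf, were higher in replicate 2 of both groups, and Nfkb1, Rela, Relb and Tnfaip3 were lower in replicate 2 of both. Replicates with the same number therefore lay on the same side in 7 of the 10 genes, against 51.9% of all tested genes. The labels do not say that a number marks a shared batch, mouse or day. Over the 10 genes, the 2 genotypes did not overlap in 5, of which 4 were higher in KO (Nfkb1, Nfkbia, Nfkbie and Tnfaip3) and 1 was lower (Rela). Over all genes of the table above 0 the groups did not overlap in 51.2%. Among the 8 tested genes it was 4, 3 higher and 1 lower, against 55.3% of all tested genes, 30.5% higher and 24.9% lower, so the members' share was near the background. The median log2 difference of the 8 was 0.069, against 0.025 for all tested genes.

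The rest of the pathway was examined through 8 lists with 98 genes, of which 90 were in the table and 75 were tested. By limma 0 of the 75 rose and 0 fell, against 1.01% of all tested genes called in either direction. At an unadjusted p below 0.05, 11 were higher and 8 lower, against 20.7% of all tested genes in either direction. Limma-voom on recovered reads called 3 higher (Ikbke, Traf3 and Zfp36l1) and 4 lower (Tnfrsf13b, Zfp36l2, Ccl4 and Ccl5) of 74 genes, against 7.36% of all genes. With the minimum mean raised to 5 FPKM, limma called Ikbke and Zfp36l1 higher and Tnfrsf13b and Ccl4 lower among 51, against 2.69% of all genes. Without KO replicate 1 it called Ccl4 lower, against 0.586% of all genes. Limma-voom without the filter on level added Cd83, a surface protein of activated cells, among 89 genes (0.632 and 0.891 FPKM in WT, 0.127 and 0.0913 in KO), against 5.37% of all genes. The median log2 difference of the 75 was 0.066 in the main fit.

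**Figure D4:**
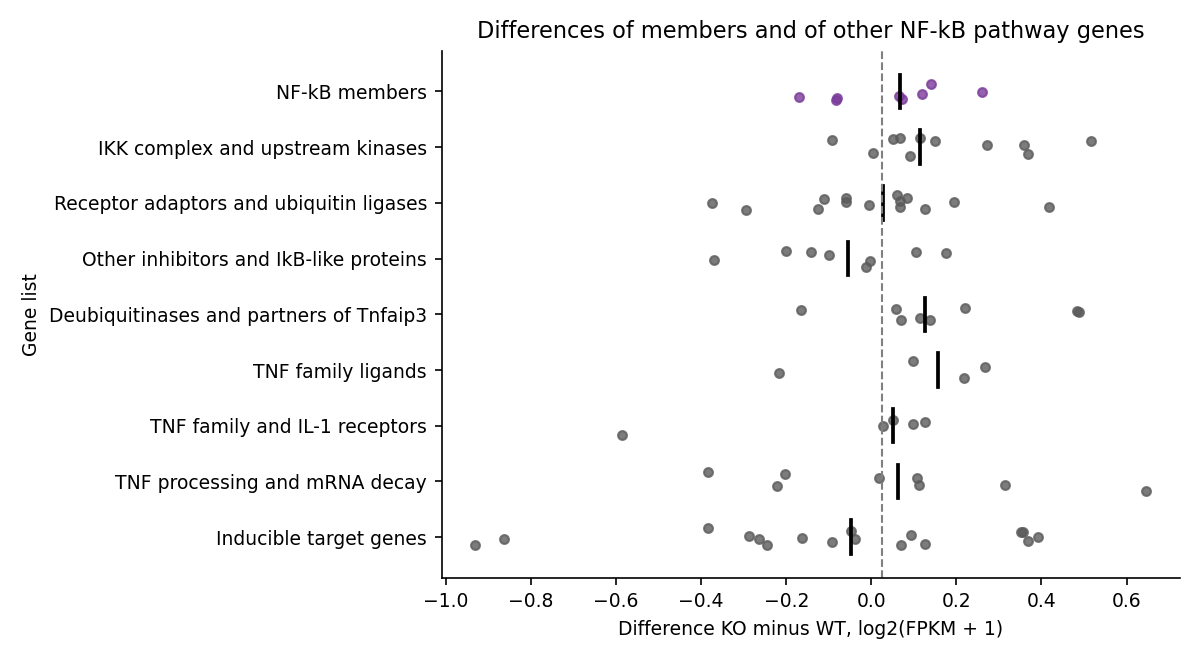
Log2(FPKM + 1) difference between KO and WT of each tested gene, as points, by list; black bars are list medians and the dashed line is the median of all tested genes, 0.025. No point passed the limma test, and the points farthest from 0 are Ccl4 and Ccl5 among the inducible targets and Zfp36l1 among the mRNA decay genes.

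Of the genes of the inhibitor kinase complex, its upstream kinases and their adaptors, 11 were tested, 10 lay above 0 and 0 were called (median 0.11). Among all 11768 tested genes, 6356 lay above 0 and the median was 0.025. The core kinase genes Chuk and Ikbkb, and Ikbkg, which encodes their scaffold, were at 8.03, 12.4 and 5.16 FPKM in WT and at 8.38, 12.5 and 4.77 in KO on average. Ikbke, a kinase related to the core kinases, was at 11.0 and 9.99 FPKM in WT and at 14.7 and 16.2 in KO. Its groups did not overlap and its log2 difference was 0.52 (SE 0.10), with an adjusted p = 0.0855 by limma and 0.0063 by limma-voom. Ikbke was named for its small p, which favours genes without overlap. In this list 6 of the 11 did not overlap, against 55.3% of all tested genes. Map3k14, the kinase of the alternative pathway, was at 1.73 and 1.78 FPKM in WT and at 2.50 and 2.60 in KO (limma adjusted p = 0.201), and Tab2, an adaptor of the kinase Map3k7, at 5.06 and 5.51 against 6.32 and 7.87 (limma adjusted p = 0.201).

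Of the receptor adaptors and ubiquitin ligases, 14 were tested, 7 lay above 0 and 7 below. Traf3, which restrains the alternative pathway, was at 2.37 and 2.55 FPKM in WT and at 3.28 and 4.001 in KO (limma adjusted p = 0.183, limma-voom 0.045). Tradd, the first adaptor at the tumour necrosis factor receptor, was at 36.2 and 35.2 FPKM in WT and at 30.5 and 24.4 in KO (limma adjusted p = 0.176). Among 8 deubiquitinases and partners of Tnfaip3, 7 lay above 0 and 0 were called, where 6356 of all 11768 tested genes lay above 0. Otulin, which removes linear ubiquitin chains, was at 5.22 and 5.23 FPKM in WT and at 7.50 and 7.97 in KO (limma adjusted p = 0.091).

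The 8 other inhibitors and IkB-like genes had a median of −0.056 with 0 called. Bcl3, a nuclear IkB protein, was the most variable, at 8.30 and 3.41 FPKM in WT and at 2.87 and 5.34 in KO. Its log2 difference of −0.37 (SE 0.38) turned to 0.17 without WT replicate 1. Nkiras2, which encodes a small protein that slows the loss of IkB, was at 22.7 and 19.2 FPKM in WT and at 20.3 and 16.0 in KO.

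Among ligands and receptors of the tumour necrosis factor family, 4 and 5 genes were tested and 0 were called by limma. Tnfrsf13b, a receptor known mainly from B cells, was at 71.9 and 66.7 FPKM in WT and at 48.3 and 43.3 in KO. Both KO libraries were below both WT libraries, with a log2 difference of −0.59 (SE 0.093, adjusted p = 0.057 by limma and 0.0032 by limma-voom). Tnfrsf13b was named for its small p, which favours genes without overlap. Of the 5 receptor genes 2 did not overlap, against 55.3% of all tested genes. Tnfrsf1a, the main receptor for tumour necrosis factor, was at 36.1 and 40.2 FPKM in WT and at 42.0 and 39.7 in KO (log2 difference 0.098, limma adjusted p = 0.561). The summed level of the B and plasma cell markers was 224.9 and 216.0 FPKM in WT and 136.7 and 120.2 in KO, and its part in the difference of Tnfrsf13b was not tested.

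Genes that act on the Tnf message and protein went both ways (8 tested, 5 above 0, 0 called by limma). The 3 related genes Zfp36, Zfp36l1 and Zfp36l2 encode proteins that bind AU-rich elements and speed the decay of messages such as that of Tnf. Zfp36l1 was at 4.17 and 3.71 FPKM in WT and at 6.37 and 7.09 in KO, a log2 difference of 0.65 (SE 0.11, adjusted p = 0.070 by limma and 0.015 by limma-voom). Zfp36l2 was at 40.6 and 38.8 FPKM in WT and at 31.5 and 28.9 in KO, a log2 difference of −0.38 (SE 0.086, adjusted p = 0.110 by limma and 0.028 by limma-voom). Zfp36 was at 35.5 and 34.9 FPKM in WT and at 29.6 and 30.5 in KO (limma adjusted p = 0.196). None of the 3 overlapped between the genotypes, and Zfp36l1 lay in the opposite direction to the others. They were named for their small p, which favours genes without overlap. In the whole list 6 of the 8 did not overlap, against 55.3% of all tested genes.

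Of 17 inducible target genes tested, 7 lay above 0 and 10 below, with a median of −0.048 and 0 called by limma. The chemokine gene Ccl4 was at 51.6 and 57.1 FPKM in WT and at 32.6 and 24.0 in KO, a log2 difference of −0.93 (SE 0.15, adjusted p = 0.057 by limma and 0.0032 by limma-voom). The chemokine gene Ccl5 was at 11.1 and 15.6 FPKM in WT and at 6.05 and 7.64 in KO (−0.86, SE 0.18, adjusted p = 0.095 by limma and 0.024 by limma-voom). Gadd45b, a stress-response gene, was at 29.1 and 29.6 FPKM in WT and at 36.6 and 39.2 in KO (0.36, SE 0.081, limma adjusted p = 0.112). Bcl2a1b, a survival gene with near-identical copies among which reads may be split, was at 7.70 and 7.82 FPKM in WT and at 10.6 and 10.4 in KO. The groups did not overlap in any of these 4 genes, the chemokine genes being lower in KO and the other 2 higher. The 4 were named for their smallest p, which favours genes without overlap. In the whole list 12 of the 17 did not overlap, against 55.3% of all tested genes.

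Markers of other cell types differed between the same libraries. For comparison with the counts that follow, limma called 0.603% of all tested genes higher and 0.408% lower in KO. An unadjusted p below 0.05 was found in 20.7% of them. Of 10 macrophage markers, 7 were tested, 3 fell and 0 rose by limma, and their summed level was 476.0 and 413.4 FPKM in WT and 308.7 and 291.9 in KO. Of 8 monocyte markers, 6 were tested and 2 fell, with sums of 842.4 and 735.1 FPKM against 802.2 and 875.2. Ly6c2 was the largest part of these sums, at 562.6 and 513.7 FPKM in WT and 645.2 and 705.4 in KO. It was the only 1 of the 6 above 0, and 5 lay below (median −0.54). All 9 mature neutrophil markers were tested and 7 rose, with sums of 1237 and 1272 FPKM against 2901 and 3490. The B and plasma cell list had 3 falls among 5 tested, the basophil and mast cell list 2 falls among 4, and the erythroid list 3 rises among 4. The T and NK cell (5 tested), dendritic cell (3) and stromal and endothelial lists (3) had 0 called, with 3, 1 and 3 genes at an unadjusted p below 0.05. Of the 5 T and NK cell genes 4 lay below 0 and 1 above, with a median of −0.64. The stem and progenitor list (7 tested) also had 0 called by limma, with 4 genes above 0 and 3 below. At an unadjusted p below 0.05, 2 of them were higher and 2 lower. Its gene Cd34 had an adjusted p = 0.065 by limma and 0.0078, lower in KO, by limma-voom, which called 7.36% of all genes. No marker that was in the table was at 0 in every library. Among 6 tested immediate early genes, which respond to cell handling, 0 were called and 0 had an unadjusted p below 0.05. Their summed level was 788.7 and 793.3 FPKM in WT and 878.2 and 752.8 in KO. Tnf, Ccl4, Ccl5 and Nfkbia are expressed by macrophages and neutrophils as well. The part of those cells, or of the other cell types listed, in the values above was not tested. In bulk RNA, fewer cells of a type and less RNA per cell cannot be told apart.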

How the data were processed

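Poly(A) RNA of 4 libraries was sequenced, 2 WT and 2 KO, grouped by title. The submitters' processing notes name the tools featureCounts, HISAT2 2.1.0, DESeq2 and CASAVA and the build GRCm38, without roles. What the authors deposited is 1 table of FPKM values with 1 added to each. This unit was inferred from the values, and the 1 was subtracted.

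Of 16442 genes, 16003 matched 1 gene of GENCODE M21. FPKM times exonic length gave whole reads (within 0.05) in 99.0% to 99.2% of low values (at most 30 reads), which gave the depths. In all 4 libraries 15787 genes had whole reads, among them all 10 described.

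Groups were compared with limma 3.58.1 (R 4.3.3, trend) on log2(FPKM + 1), two-sided, group as the only term, over 11768 genes (mean level 1 FPKM or more), with Benjamini-Hochberg adjustment over all of them at 0.05. The p-values measure the spread between these libraries and rest on 2 residual and 4.10 prior degrees of freedom. Limma-voom used recovered reads of 11376 genes. The fit was also run on simulated reads, whose spread was a fixed value not taken from these libraries. No result above rests on that run. Poisson intervals are exact, at 95%, and cover counting error only.

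The 10 genes, the 8 pathway lists and the 11 marker lists were chosen with earlier results of these data known. Named genes are the 10, up to 4 per pathway list by smallest p, Rreb1, up to 3 per marker list by level, and the 3 genes nearest to the one of the 10 with the smallest p; Chuk, Ikbkb and Ikbkg were named as the core complex. Genes outside the table were not analysed here, and the planned comparison of protein sequences was not run.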

Additional observations from a re-analysis of the deposited data

How the results depend on the processing

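Of the 11 alternatives, those that kept all 4 libraries called 0 of the 10 genes in either direction, the replicate block included. Most of them tested 8 of the 10, and a mean of at least 5 FPKM left 4. Of all genes, limma without the filter called 22 higher and 10 lower of 16206. With the replicate block it called 40 and 26 of 11768. At such low shares, 0 among so few genes says little about stability. Of 84 alternative values of the 8 tested genes, 81 kept their direction. With all 4 libraries the lowest adjusted p was 0.258, for Tnf by limma with the replicate block. By limma, changing the filter on level or adding the replicate block returns the main log2 difference with all 4 libraries. Those values could not turn. The 3 that turned were Rel without WT replicate 2 (range without single libraries −0.22 to 0.064) and Nfkbiz without WT replicate 1 or KO replicate 2 (−0.041; range −0.13 to 0.26). Counts of other pathway genes depended on the test. From 0 higher and 0 lower they became 2 and 2 with a mean of at least 5 FPKM, where fewer genes are tested. They became 3 and 4 by limma-voom, and 3 and 5 by limma-voom without the filter on level, a setting chosen after seeing the data that adds Cd83. Without single libraries, 0 were called higher and 0 to 1 lower, the 1 being Ccl4 without KO replicate 1. Without single libraries Ltb ranged from −0.47 to 0.030 (higher without KO replicate 2), Ltbr from −0.082 to 0.19 (lower without WT replicate 2 and, at −0.018, without KO replicate 2), Bcl3 from −0.91 to 0.17 (higher without WT replicate 1) and Rreb1 from −0.013 (without WT replicate 1) to 0.27. The cause of these changes was not tested. The narrowest kB motif was found in 57.1% of the 7 genes with a promoter, against all 7 with the loose motif. Deviations of same-numbered libraries had a correlation of 0.0090 over 11768 genes. This value cannot show whether a number marks a shared batch, mouse or day. With the replicate block 0 members and 0 other pathway genes were called. Relb and Tnfaip3 rest on 43 to 131 reads, which limits what difference could be seen.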
